A study of Mus musculus with 12 samples.

Results

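The genes described are 7 genes of cholesterol synthesis and of its control by the SREBP transcription factors, *Hmgcs1*, *Idi1*, *Fdft1*, *Sqle*, *Lss*, *Insig1* and *Srebf2*, out of 54352 gene symbols counted. They were listed by name, with earlier results of these data known, and each had a row in the count table and passed the filter on low counts in every comparison. The cells were primary fibroblasts of the adventitia, the outer connective tissue coat of the vessel, from wild type C57Bl/6 mice, grown from the ascending or the descending aorta. Cultures of both sites received solute control or mouse TGFβ at 10 ng/mL for 48 h, which gave 4 groups of 3 RNA libraries (ascending control, ascending TGFβ, descending control and descending TGFβ). The labels give an age of 14 weeks, 1 passage and a single batch for every library, while the methods of the study give another age and its text another number of passages. Whether replicates came from separate animals was not stated, so p-values measure the spread between these cultures, which may be technical.

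Cells make cholesterol from acetyl-CoA through mevalonate, isoprenoids, squalene and lanosterol. When sterols in the endoplasmic reticulum are low, the escort protein SCAP carries the SREBP precursors to the Golgi, where they are cleaved, and the released SREBP2, the product of *Srebf2*, turns on the genes of the pathway and of lipoprotein uptake. INSIG1 and INSIG2 retain the SCAP-SREBP complex when sterols are high, and *Insig1* is itself an SREBP target. Fibroblasts in culture take up cholesterol from serum lipoproteins and also make it. The cultures here were plated in medium with serum.

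Counts are given as normalized CPM, counts relative to the scaled total of each library (edgeR's TMM), from 16250126 to 23892943 counts per library. A difference passed the test when its adjusted p (edgeR's quasi-likelihood F-test, two-sided, Benjamini-Hochberg over all genes tested) was under 0.05, and its error is 1 SE. Descending control replicate 3 stood apart, with 13031 genes detected against 19337 to 20931 in the other libraries and 11.02% of its counts on mitochondrial genes against 0.703 to 1.03%. The biological coefficient of variation of the descending controls was 63.3% with this library and 4.82% without it, and 3.48 to 6.39% in the other groups. Comparisons of the 7 genes that used it are therefore given with and without it, and the choice to leave it out was made after the data were seen. Of the 18 enzymes of cholesterol synthesis described here, 6 lay above and 10 below both other descending controls in this library, from 0 for *Fdps* to 2.50 times their mean for *Idi1*. The fibroblast markers *Pdgfra*, *Col1a1*, *Col1a2*, *Dcn* and *Lum* summed to 10350 to 23095 CPM in every library and the endothelial markers to at most 2.20 CPM, with *Tie1* at 0 throughout. The fibroblast sum was carried by *Col1a1* and *Col1a2*, which rose with TGFβ at both sites, while *Pdgfra*, *Dcn* and *Lum* fell at both, *Pdgfra* by 1.74 in ascending and by 2.14 in descending fibroblasts on the log2 scale. In descending fibroblasts these 5 calls held with and without replicate 3. The TGFβ response genes *Acta2*, *Tagln* and *Cthrc1* rose with TGFβ in ascending fibroblasts (3 of 3), and in descending fibroblasts 2 of 3 rose with replicate 3 and 3 of 3 without it.

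*Hmgcs1* (chr13:119690379-119708260, plus strand, mm10), which encodes the cytosolic HMG-CoA synthase at the entry to the mevalonate pathway, was measured at 84.6, 95.2 and 89.8 CPM in ascending control and at 71.9, 72.1 and 69.5 CPM in ascending TGFβ. It stood at 156.8, 152.6 and 257.3 CPM in descending control and at 90.7, 83.0 and 90.6 CPM in descending TGFβ. All descending controls lay above all other libraries, ascending control and descending TGFβ overlapped, and ascending TGFβ was lowest. Of the 50-base exon sequences of *Hmgcs1*, 11.6% also occur in another gene, mostly *Gm48342* on the opposite strand, and the share is at most 2.17% for *Sqle*, *Lss*, *Insig1* and *Srebf2*.

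*Idi1* (chr13:8885501-8892451, plus strand), the isomerase that makes the reactive isoprenoid unit, followed the same order. Its level was 25.8, 27.0 and 27.2 CPM in ascending control, 20.7, 20.9 and 20.5 CPM in ascending TGFβ, 44.6, 47.3 and 114.7 CPM in descending control and 24.54, 22.0 and 24.01 CPM in descending TGFβ. No groups overlapped, and descending control replicate 3 was 2.50 times the mean of its group's other libraries. Of the 50-base exon sequences of *Idi1*, 25.3% also occur in another gene, mostly *Gm13502*, so its counts may be split between them.

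*Fdft1* (chr14:63145150-63179578, minus strand) encodes squalene synthase, which commits isoprenoids to sterols. It was measured at 48.0, 52.1 and 50.8 CPM in ascending control, 43.9, 45.3 and 43.8 CPM in ascending TGFβ, 70.5, 65.2 and 66.5 CPM in descending control and 48.6, 52.9 and 50.2 CPM in descending TGFβ. Ascending control and descending TGFβ overlapped, and descending control replicate 3 lay between its group's other libraries. *Fdft1* shares 26.5% of its exon sequences with another gene, mostly with *Ctsb* on the opposite strand, and without a stated strand setting their reads cannot be told apart.

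*Sqle* (chr15:59315077-59331192, plus strand), which encodes squalene epoxidase, a rate-limiting enzyme of the sterol branch, was measured at 86.6, 86.3 and 86.8 CPM in ascending control, 64.7, 66.3 and 69.0 CPM in ascending TGFβ, 133.7, 140.8 and 57.6 CPM in descending control and 91.3, 92.2 and 93.1 CPM in descending TGFβ. Without descending control replicate 3 no groups overlapped, whereas that library was the lowest of the 12.

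*Lss* (chr10:76531588-76557138, plus strand), whose product closes the rings to form lanosterol, was measured at 31.8, 31.3 and 36.4 CPM in ascending control and 26.5, 27.9 and 26.2 CPM in ascending TGFβ. In descending fibroblasts it stood at 47.4, 45.0 and 31.5 CPM in control and 26.8, 28.1 and 30.7 CPM with TGFβ. The TGFβ groups of both sites overlapped, and descending control replicate 3 fell among the ascending controls.

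*Insig1* (chr5:28071363-28078662, plus strand), the sterol-sensing retention factor, was measured at 110.2, 110.2 and 110.8 CPM in ascending control, 80.4, 85.6 and 80.2 CPM in ascending TGFβ, 115.5, 118.4 and 97.2 CPM in descending control and 83.8, 93.5 and 82.4 CPM in descending TGFβ. The libraries fell into a control and a TGFβ level, and the TGFβ groups of both sites overlapped.

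*Srebf2* (chr15:82147181-82205379, plus strand), the transcription factor itself, was measured at 175.1, 181.2 and 184.4 CPM in ascending control and 154.6, 157.7 and 152.6 CPM in ascending TGFβ. In descending fibroblasts it stood at 198.6, 203.8 and 104.4 CPM in control and 154.3, 163.1 and 157.3 CPM with TGFβ. The TGFβ groups overlapped, and descending control replicate 3 was the lowest library.

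**Figure D1:**
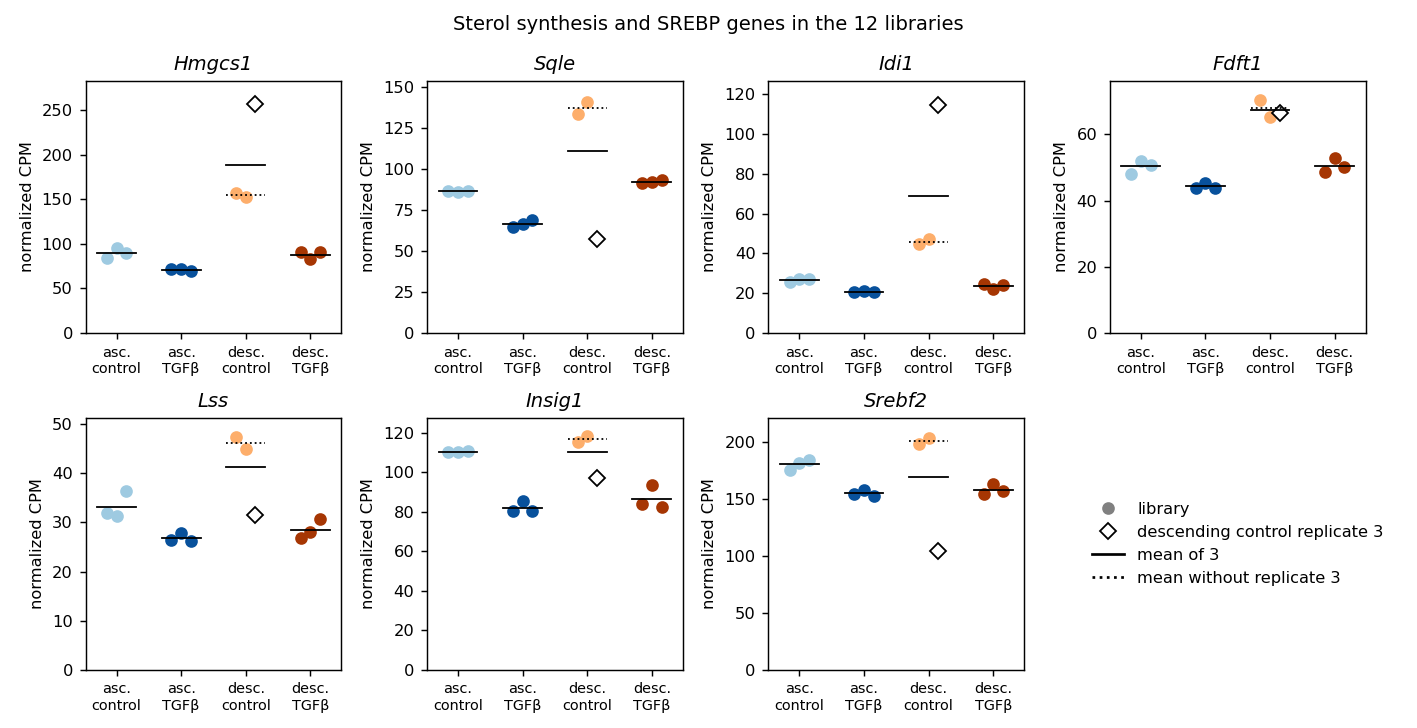
Normalized CPM of the 7 genes (y axis, linear from 0) in the 12 libraries by group (x axis), with each point a library, the solid line the mean of 3 and the dotted line the mean of descending control without replicate 3 (open diamond). For *Hmgcs1* and *Idi1* the diamond lies above the other descending controls, at 257.3 and 114.7 CPM, and for *Sqle*, *Lss*, *Insig1* and *Srebf2* below them.

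Per kilobase of exon, the mean levels in ascending control were ordered *Insig1* at 35.7, *Srebf2* at 25.1, *Hmgcs1* at 19.6, *Sqle* at 15.6, *Fdft1* at 11.9, *Idi1* at 7.60 and *Lss* at 3.07 CPM per kb. These lengths are those of all annotated exons of a gene, which overstates the length of a transcript where isoforms differ. With descending control replicate 3 left out, the highest group mean was in descending control and the lowest in ascending TGFβ for each of the 7 genes. The ratio of these means was 2.22 for *Idi1*, 2.17 for *Hmgcs1*, 2.06 for *Sqle*, 1.72 for *Lss*, 1.53 for *Fdft1*, 1.42 for *Insig1* and 1.30 for *Srebf2*, so that the 5 enzymes spanned a wider range than the regulators. In bulk RNA, fewer cells of a type and less RNA per cell cannot be told apart.

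Since the genes share an upstream regulator, their promoters are shown, as RefSeq gives them on GRCm38.p6 from 250 bases before to 50 bases after an annotated start. The table held 5 of the 7 genes (not *Fdft1* and *Sqle*). The letters searched, on both strands and chosen after the promoters were seen, were TCACNCCA, the core of the sterol regulatory element to which SREBP binds, its longer form TCACNCCAC, ATTGG, the inverted CCAAT box bound by NF-Y, the GC box GGGCGG bound by Sp1, and the E-box CACGTG. Apart from TCACNCCAC, which contains TCACNCCA, no matches of different motifs overlapped in the 5 promoters. The promoters of *Hmgcs1*, *Srebf2* and *Insig1* are printed 5′ to 3′ as an enzyme, the regulator and its inhibitor, with TCACNCCA and ATTGG in capitals.
Hmgcs1, chr13:119690101-119690400, plus strand: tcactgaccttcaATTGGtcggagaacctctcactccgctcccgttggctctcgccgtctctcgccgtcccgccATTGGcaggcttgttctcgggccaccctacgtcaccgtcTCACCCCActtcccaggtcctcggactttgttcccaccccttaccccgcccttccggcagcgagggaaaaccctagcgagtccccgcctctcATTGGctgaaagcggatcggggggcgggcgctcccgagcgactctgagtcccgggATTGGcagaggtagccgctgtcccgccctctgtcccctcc
Srebf2, chr15:82147019-82147318, plus strand: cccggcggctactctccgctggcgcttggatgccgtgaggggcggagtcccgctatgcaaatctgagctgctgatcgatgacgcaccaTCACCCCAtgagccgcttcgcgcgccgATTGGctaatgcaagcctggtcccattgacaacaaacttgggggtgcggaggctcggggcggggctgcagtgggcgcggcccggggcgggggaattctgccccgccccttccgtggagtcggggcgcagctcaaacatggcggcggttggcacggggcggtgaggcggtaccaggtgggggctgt
Insig1, chr5:28071162-28071461, plus strand: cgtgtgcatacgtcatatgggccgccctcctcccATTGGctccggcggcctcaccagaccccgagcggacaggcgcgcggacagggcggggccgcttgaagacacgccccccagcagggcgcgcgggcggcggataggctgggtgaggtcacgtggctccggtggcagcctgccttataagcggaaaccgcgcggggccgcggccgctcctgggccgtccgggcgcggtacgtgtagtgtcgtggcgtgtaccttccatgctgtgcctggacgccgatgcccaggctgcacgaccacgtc

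TCACNCCA occurred in 2 of the 5 promoters, 137 bases before the start of *Hmgcs1* and 162 bases before that of *Srebf2*, and in 4.36% of all 32851 promoters of this length. TCACNCCAC occurred in *Hmgcs1* alone of the 5 and in 1.24% of all promoters. ATTGG occurred in 5 of 5, with 4 copies in *Hmgcs1*, and in 37.4% of all promoters. GGGCGG occurred in 5 of 5 and in 35.7% of all promoters. CACGTG occurred in *Insig1*, 101 bases before the start, and in 7.15% of all promoters. A match is a description of the letters only, and a missing match says only that the letters are not in this window.

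The change with TGFβ in ascending fibroblasts was compared first. All 7 genes fell, beside 27.6% of the 13917 genes tested that were lower with TGFβ, and their median log2 fold change was -0.34 beside -0.004 over all genes. Among the enzymes, *Sqle* fell by 0.38 (SE 0.04, adjusted p = 9.39e-07), *Idi1* by 0.37 (0.06, 7.67e-05), *Hmgcs1* by 0.34 (0.05, 1.45e-05), *Lss* by 0.31 (0.07, 0.000745) and *Fdft1* by 0.19 (0.05, 0.00463). *Insig1* fell by 0.43 (0.04, 1.15e-07), which means that it fell by 25.9%, and *Srebf2* fell by 0.22 (0.04, 4.06e-05), that is, it fell by 14.4%. The ascending control and TGFβ libraries did not overlap for any of the 7 genes. In a fit of all 12 libraries, whose shared spread includes descending control replicate 3, *Insig1* alone of the 7 passed.

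Of the 13 other enzymes of cholesterol synthesis, 10 fell in ascending fibroblasts, none rose and 3 did not pass. The genes that fell included *Tm7sf2*, a sterol reductase, by 1.01 (SE 0.13, adjusted p = 6.15e-06), *Pmvk*, phosphomevalonate kinase, by 0.87 (0.14, 4.84e-05) and *Dhcr7*, which makes cholesterol in the last step of the Kandutsch-Russell branch, by 0.76 (0.11, 2.03e-05). Those that did not pass, *Cyp51*, *Msmo1* and *Ebp*, all act after lanosterol and had log2 fold changes of 0.09, -0.06 and -0.02.

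The regulators and uptake genes included both rises and falls. *Npc1*, which exports cholesterol from lysosomes, rose in ascending fibroblasts by 0.32 (0.05, 7.89e-05). *Insig2* fell by 0.49 (0.06, 2.14e-06), close to the value of *Insig1*. *Srebf1*, which encodes the SREBP forms that favour fatty acid genes, had a log2 fold change of 0.03 (0.04, 0.498). Over the list of 8 SREBP control genes, 2 rose (*Mbtps2* and *Rnf139*), 4 fell and 2 did not pass. The 4 that fell include *Insig1* and *Srebf2*, which are already counted among the 7 genes. Of the 5 uptake and transport genes 1 rose (*Npc1*) and 3 fell. Over all genes tested, 28.2% rose and 27.6% fell.

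**Figure D2:**
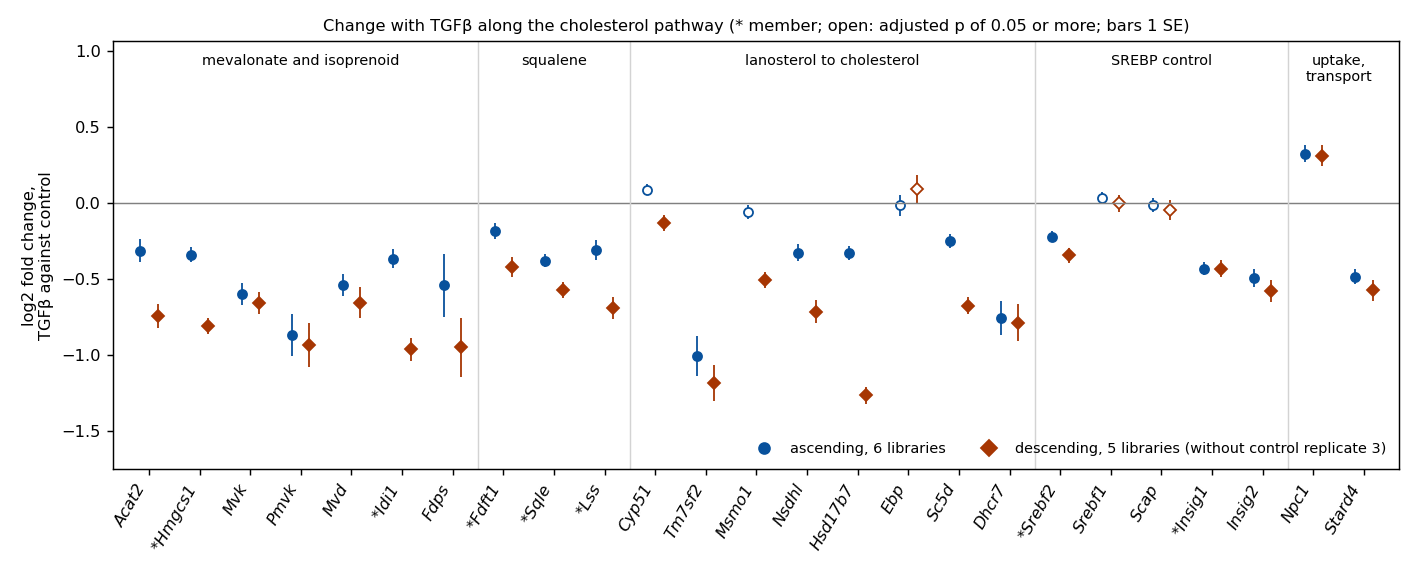
Log2 fold change with TGFβ (y axis, bars 1 SE) of 18 synthesis enzymes in pathway order and of 7 control and uptake genes (x axis, members with an asterisk), in ascending fibroblasts (blue circles) and in descending fibroblasts without control replicate 3 (brown diamonds), with open symbols where the adjusted p was 0.05 or more. Most enzymes lie below 0 at both sites, while *Npc1* lies above it at 0.32 and 0.31.

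The same comparison in descending fibroblasts depended on control replicate 3. With it, 1 of the 7 genes fell, *Hmgcs1* by 1.11 (SE 0.24, adjusted p = 0.0444), beside 4.48% of 13825 genes. The others had log2 fold changes of -1.56 (adjusted p = 0.0755) for *Idi1*, -0.54 (0.151) for *Lss*, -0.42 (0.0784) for *Fdft1*, -0.36 (0.169) for *Insig1*, -0.27 (0.672) for *Sqle* and -0.10 (0.852) for *Srebf2*. DESeq2's Wald test on the same libraries called 4 genes, *Hmgcs1*, *Idi1*, *Fdft1* and *Insig1*. Leaving out any of the other libraries in turn left 0 of the 7 called by edgeR, with an adjusted p of *Hmgcs1* between 0.0765 and 0.219.

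Without control replicate 3, all 7 genes fell in descending fibroblasts, beside 26.3% of 14311 genes, with a median of -0.57 beside -0.01 over all genes. *Idi1* fell by 0.96 (SE 0.08, adjusted p = 5.24e-12), *Hmgcs1* by 0.81 (0.05, 1.47e-13), *Lss* by 0.69 (0.07, 4.41e-09), *Sqle* by 0.57 (0.05, 1.57e-10) and *Fdft1* by 0.42 (0.06, 1.83e-06). *Insig1* fell by 0.43 (0.06, 2.05e-07) and *Srebf2* by 0.34 (0.05, 1.03e-06). On the linear scale *Idi1* fell by 48.7% and *Hmgcs1* fell by 42.9%.

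Of the 13 other enzymes, 3 fell in descending fibroblasts with replicate 3 (*Hsd17b7*, *Pmvk* and *Nsdhl*) and 12 fell without it, while *Ebp* did not pass. *Hsd17b7*, a keto-reductase of the steps after lanosterol, fell by 1.23 (0.12, 0.00376) with replicate 3 and by 1.27 (0.06, 3.98e-18) without it, from 191.1, 196.4 and 176.7 to 74.8, 85.0 and 81.5 CPM. *Pmvk* fell by 0.93 in both fits (adjusted p = 0.0451 and 2.18e-06). *Insig2* had -0.43 (0.231) with replicate 3 and fell by 0.58 (0.07, 4.49e-08) without it, and *Srebf1* did not pass in either fit, at 0.38 (0.665) and -0.005 (0.951). Without replicate 3, 1 of the 8 SREBP control genes rose (*Mbtps2*) and 3 fell, *Insig2* and the already counted *Insig1* and *Srebf2*. Of the 5 uptake and transport genes 1 rose (*Npc1*) and 3 fell in that fit. Over all genes in it, 26.6% rose and 26.3% fell. With replicate 3 edgeR called 0 genes of either list. In each list 1 gene had an unadjusted p under 0.05 (*Insig1* and *Npc1*), and DESeq2 called 1 in each.

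**Figure D3:**
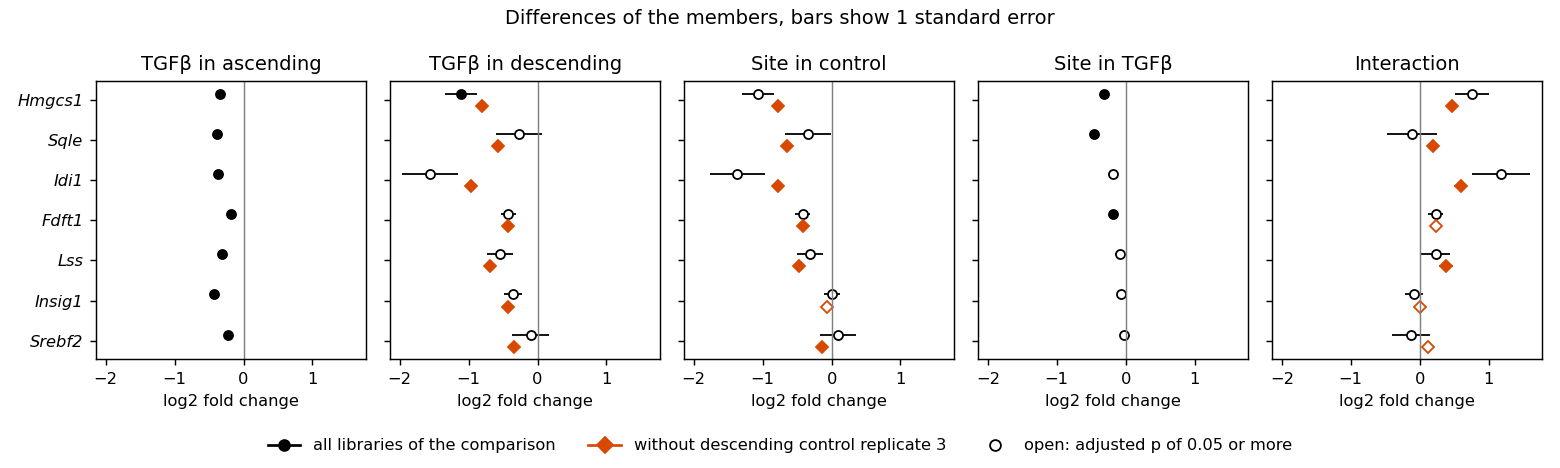
Log2 fold changes of the 7 genes (x axis, the same scale in each panel, bars 1 SE) in the 5 comparisons, with all libraries (black circles) and without descending control replicate 3 (orange diamonds), filled where the adjusted p was under 0.05. Site is ascending minus descending, and the interaction is the change with TGFβ in ascending minus that in descending. Without replicate 3 the standard errors in the descending comparison were at most 0.08.

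Between the control cultures, the enzymes were lower in ascending than in descending fibroblasts once replicate 3 was left out. With all libraries, 0 of the 7 genes passed edgeR's test, beside 1.47% of 14090 genes that were lower in ascending, while 3 had an unadjusted p under 0.05, DESeq2 called 3 and limma voom with sample weights 6. Without replicate 3, 6 of 7 were lower in ascending control, beside 15.2% of 14644 genes. *Idi1* was lower by 41.6%, at a log2 difference of -0.78 (SE 0.06, adjusted p = 3.09e-07), *Hmgcs1* at -0.77 (0.05, 1.03e-07), *Sqle* at -0.65 (0.05, 1.49e-07), *Lss* at -0.47 (0.07, 0.000175) and *Fdft1* at -0.42 (0.06, 0.0001). *Srebf2* differed less, at -0.15 (0.04, 0.0207), and its difference was 0.10 (0.26, 0.857) with replicate 3. *Insig1* had -0.07 (0.05, 0.289) without replicate 3 and 0.01 (0.12, 0.983) with it. Replicate 3 moved the descending control means of the enzymes in both directions. With and without it, the means were 68.9 and 46.0 CPM for *Idi1* and 188.9 and 154.7 CPM for *Hmgcs1*. They were 110.7 and 137.2 CPM for *Sqle*, 41.3 and 46.2 CPM for *Lss*, and 67.4 and 67.8 CPM for *Fdft1*.

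With all libraries, 2 other synthesis enzymes passed in control cultures, *Hsd17b7* at -1.41 (0.10, 0.00423) and *Nsdhl*, a decarboxylating sterol dehydrogenase of the steps after lanosterol, at -0.89 (0.15, 0.0478), and without replicate 3 they had -1.45 and -0.74. Without replicate 3, 10 of the 13 other enzymes were lower in ascending control and none was higher. *Insig2* had -0.05 (0.637) and *Srebf1* -0.10 (0.185) in the same fit, and 0.11 (0.779) and 0.29 (0.773) with replicate 3.

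The TGFβ-treated cultures of the sites were compared next, and their libraries do not include descending control replicate 3. *Sqle* was lower in ascending fibroblasts at -0.47 (SE 0.05, adjusted p = 1.44e-09), *Hmgcs1* at -0.31 (0.05, 5.57e-06) and *Fdft1* at -0.19 (0.05, 0.0076), which made 3 of 7 beside 18.2% of 13678 genes. The other genes had -0.18 (0.060) for *Idi1*, -0.09 (0.374) for *Lss*, -0.07 (0.277) for *Insig1* and -0.03 (0.640) for *Srebf2*. Without descending TGFβ replicate 2, *Idi1* passed as well, at -0.23 (adjusted p = 0.0279). Of the 13 other enzymes 7 were lower in ascending fibroblasts and none higher. *Dhcr7*, at 6.63, 7.19 and 7.94 CPM in ascending TGFβ and 8.88 to 13.1 CPM in descending TGFβ, was among them at -0.59 (0.13, 0.000676), and the groups did not overlap. *Srebf1* and *Insig2* had -0.06 (0.261) and 0.04 (0.697).

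Whether the change with TGFβ differed between the sites was tested by the interaction over the 12 libraries. With all of them, 0 of the 7 genes passed, beside 0.806% of 14637 genes, 2 had an unadjusted p under 0.05 (*Hmgcs1* and *Idi1*), DESeq2 called 0 and limma voom 4. Without descending control replicate 3, 4 of 7 were more negative in descending than in ascending fibroblasts, beside 6.07% of 15013 genes with a positive interaction. The interaction was 0.60 (SE 0.09, adjusted p = 5.63e-05) for *Idi1*, 0.47 (0.07, 3.88e-05) for *Hmgcs1*, 0.39 (0.10, 0.0109) for *Lss* and 0.19 (0.06, 0.0415) for *Sqle*. *Fdft1* lay at the threshold, at 0.24 (0.08, 0.050). The call of *Sqle* was lost under limma voom (adjusted p = 0.0618), under DESeq2 without replicate 3 (0.0879) and without both replicate 3 and ascending control replicate 2 (0.0657), while *Hmgcs1*, *Idi1* and *Lss* passed in all 3 of these fits and *Fdft1* under voom and without both libraries (0.0416 and 0.0315). In the edgeR fit without replicate 3, the regulators *Srebf2* and *Insig1* had 0.12 (0.06, 0.175) and 0.003 (0.07, 0.987). For *Sqle*, *Insig1* and *Srebf2* the sign was negative with replicate 3, at -0.11, -0.08 and -0.12. For the other genes the size depended on the libraries used. With single libraries left out, the interaction ranged from 0.600 to 1.42 for *Idi1* and from 0.472 to 0.897 for *Hmgcs1*. It ranged from 0.123 to 0.387 for *Lss* and from 0.198 to 0.262 for *Fdft1*.

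Of the 13 other enzymes, *Hsd17b7* alone had an interaction with all libraries, 0.90 (0.11, 0.00548), and 6 had a positive interaction without replicate 3. These included *Hsd17b7* at 0.94 (0.07, 1.04e-09), *Msmo1* at 0.45 (0.07, 5.14e-05), *Acat2* at 0.44 (0.11, 0.0107), *Sc5d* at 0.43 (0.07, 4.99e-05) and *Nsdhl* at 0.39 (0.09, 0.00572). *Acat2* shares 39.1% of its exon sequences, mostly with *Acat3*. *Srebf1* and *Insig2* did not pass, with or without replicate 3.

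Other gene groups moved in the same libraries. The 10 cell cycle genes, among them *Mki67*, *Top2a* and *Cdk1*, summed to 343 to 451 CPM in descending control, 193 to 223 CPM in descending TGFβ, 359 to 370 CPM in ascending control and 323 to 355 CPM in ascending TGFβ. In descending fibroblasts 4 of 10 fell with TGFβ with replicate 3 and 10 of 10 without it, beside 4.48% and 26.3% of all genes. Without replicate 3, 10 of 10 had a positive interaction, beside 6.07% of all genes. With it edgeR called 0 of 10, beside 0.321%, while 8 had an unadjusted p under 0.05, DESeq2 called 7 and limma voom 9. In ascending fibroblasts 4 of 10 fell and 1 rose, beside 27.6% and 28.2% of all genes. In TGFβ-treated cultures 9 of 10 were higher in ascending fibroblasts, beside 18.1% of all genes, opposite to the direction of *Hmgcs1*, *Sqle* and *Fdft1*. The adipocyte markers *Adipoq*, *Plin1*, *Cidec*, *Lep* and *Cfd* summed to 26.9 to 34.7 CPM in descending control and 11.3 to 20.5 CPM in descending TGFβ, against 0.912 to 6.04 CPM and 0.0473 to 0.679 CPM in ascending control and TGFβ. The macrophage markers summed to 341 CPM in ascending control replicate 2 and to 51.0 and 56.1 CPM in the other ascending controls, against 28.4 to 40.2 CPM in ascending TGFβ, 25.5 to 44.9 CPM in descending control and 13.5 to 25.8 CPM in descending TGFβ. Of these 5 markers, 5 fell with TGFβ in ascending fibroblasts, 4 without ascending control replicate 2, and 3 in descending fibroblasts without control replicate 3. Without ascending control replicate 2 all 7 genes still fell with TGFβ in ascending fibroblasts, from -0.16 for *Fdft1* to -0.43 for *Insig1*. Smooth muscle markers summed to 138 to 152 CPM in ascending control and 181 to 194 CPM in ascending TGFβ, and to 196 to 246 CPM and 318 to 342 CPM in the descending groups. Of these 5 markers, *Cnn1*, *Smtn* and *Lmod1* rose with TGFβ in ascending fibroblasts, while *Myh11* and *Des* fell, by 0.63 and 1.35. In descending fibroblasts without control replicate 3, *Des* fell by 1.37 and the other 4 rose, and with it *Cnn1* alone passed. The part of the cell cycle, adipocyte, macrophage and smooth muscle genes in the differences of the sterol genes was not tested.

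**Figure D4:**
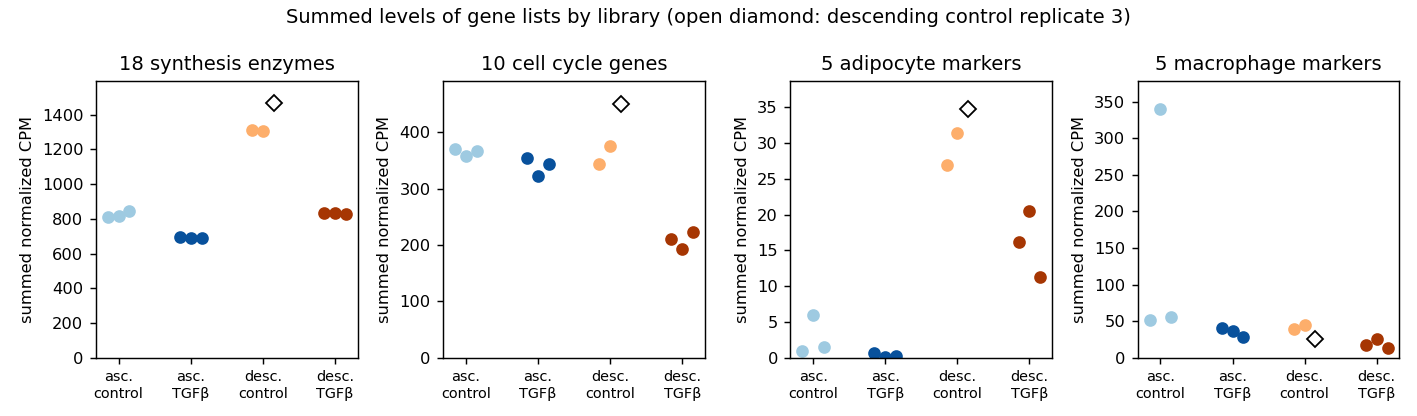
Summed normalized CPM (y axis, linear from 0) of 18 synthesis enzymes, the 10 cell cycle genes and the 5 adipocyte and 5 macrophage markers in each library (points) by group (x axis), with descending control replicate 3 as an open diamond. The synthesis enzymes summed to 1308 to 1465 CPM in descending control and to 688 to 844 CPM elsewhere. The 1465 CPM is that of replicate 3, in which 10 of these 18 enzymes lay below both other descending controls. The adipocyte markers are highest in the descending groups, and 1 ascending control stands out for macrophage markers.

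Across the 11 libraries other than descending control replicate 3, the log2 CPM of the 7 genes varied together. Pearson's r between pairs lay between 0.705 (*Sqle* and *Insig1*) and 0.983 (*Hmgcs1* and *Idi1*), and with that library between -0.39 and 0.983. The 10 other genes most like the mean profile of the 7, of 14637 genes over these 11 libraries, were *Col6a2* (r = 0.991), *Znhit6* (0.988), *Kctd12*, *Snai2*, *Omd*, *Ddr2*, *Zmym3*, *St3gal1*, *Man2a1* and *Gja1* (0.983). None of them belongs to the lists of sterol genes. Among the listed genes other than the 7, *Sc5d* came closest at 0.970. Of the 7 genes themselves, *Insig1* ranked 883 of the 14637 genes, at 0.840. The other synthesis enzymes ran from 0.107 for *Ebp* to 0.970 for *Sc5d*. These r values describe libraries that share 4 groups and carry no p.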

How the data were processed

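RNA of 12 cultures was analysed, 3 per combination of site and treatment as the labels give them. The authors used STAR to align the reads to mm10, assigned them to gene symbols with featureCounts and deposited the raw counts. Tool versions, strand setting and the treatment of multi-mapping reads are not given in the sources used here.

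Counts were tested in R 4.3.3 with edgeR 4.0.16 (TMM, filterByExpr at its defaults of 10 counts and a total of 15, quasi-likelihood F-test) for 2 groups at a time, and over the 4 groups for the interaction. The SE was the log2 fold change divided by the square root of F. DESeq2 1.42.0, limma 3.58.1 voom, another scaling, no filter, a joint fit, a replicate block and leaving out each library were alternatives. The fits were also run on simulated data in which every library had the same spread. No simulated library stood apart, so these runs do not cover comparisons that use descending control replicate 3. The 7 genes and all gene lists were chosen with earlier results of these data known. Besides the 7, *Srebf1* and *Insig2* were always named, with up to 6 listed genes of the largest change past the threshold per comparison, with and without descending control replicate 3, and the 10 genes most alike by r, and other genes as examples chosen after their values were seen. Some genes of the pathway are not reported here. Log2 CPM used a prior count of 2. Positions are from GENCODE vM21 and shared sequence from 50-base sequences of its transcripts. A floor of 3 counts was 0.117 to 0.207 CPM and covers counting error only, as PCR copies were not marked by molecular identifiers.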

Additional observations from a re-analysis of the deposited data

Results flagged for a closer look

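*Hsd17b7*, which encodes a keto-reductase of the steps from lanosterol to cholesterol, stood out because its change with TGFβ differed between the sites by edgeR's interaction test over the 12 libraries. The interaction was 0.90 on the log2 scale (SE 0.11, adjusted p = 0.00548), and 0.94 (0.07, 1.04e-09) without descending control replicate 3. *Hsd17b7* fell from 70.7, 69.9 and 70.7 to 55.4, 54.6 and 59.0 CPM in ascending fibroblasts, and all 3 descending controls lay above every other library.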

How the results depend on the processing

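The count of the 7 genes called in ascending fibroblasts was 7 under every alternative except the joint fit of 12 libraries (1, and 2338 genes in all), including each library left out. With TGFβ in descending fibroblasts it was 4 under DESeq2, 7 under voom, 5 in the joint fit, 0 with the replicate block and 7 under DESeq2 without descending control replicate 3, and 0 to 7 with single libraries left out. The genes called in all numbered 2531, 7335, 3570, 95 and 6582 in the same order, and 213 to 7576. Between control cultures it was 3 under DESeq2, 6 under voom, 3 in the joint fit, 6 under DESeq2 without replicate 3, 6 without both that library and ascending control replicate 2, and 0 to 6 with single libraries left out. All genes called numbered 1151, 4392, 1545, 3804 and 4453, and 33 to 4631, with 0 under the replicate block (1235 at an unadjusted p under 0.05, by edgeR). Between TGFβ cultures voom called 4 of the 7 (with *Idi1*) and 4923 genes. The joint fit called 0 of the 7 and 1106 genes, against 3 and 4963 by edgeR. With single libraries left out, 3 to 4 of the 7 and 4340 to 4656 genes were called. For the interaction it was 4 under voom (with *Fdft1* and not *Sqle*), 3 under DESeq2 without replicate 3, 4 without both libraries (again with *Fdft1*) and 0 to 4 with single libraries left out. All genes called numbered 497 under DESeq2, 1979 under voom, 56 without the filter, 50 with the replicate block, 1849, 1975 and 25 to 2022. Every maximum of these ranges in descending, control and interaction comparisons is the fit without descending control replicate 3. The cause of the other shifts was not tested.

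The sign of single genes turned in 2 fits with TGFβ in descending fibroblasts, 8 between control cultures and 11 for the interaction. With TGFβ in descending fibroblasts *Srebf2* ranged from -0.344 to 0.060 with single libraries left out, with 0.036 and 0.060 without descending control replicate 1 or 2. Between control cultures *Insig1* had -0.074 under voom, -0.068 in DESeq2 without replicate 3 and -0.071 without both libraries, and ranged from -0.070 to 0.059 with single libraries left out. *Srebf2* had -0.147, -0.144 and -0.152 in the same order and a range from -0.146 to 0.255. For the interaction, in that order, *Sqle* had 0.200, 0.176 and 0.191 with a range from -0.318 to 0.193, and *Srebf2* 0.131, 0.108 and 0.130 with a range from -0.276 to 0.125. *Insig1* had 0.023 under voom and 0.0031 without both libraries, with a range from -0.128 to 0.0035. In these ranges the value on the other side of 0 from the fit with all libraries is that without descending control replicate 3, except for *Srebf2* with TGFβ.

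The deviations of same-numbered replicates from their group means had r of -0.026 to 0.065 over 12 pairs. Whether these replicates share an origin was not stated. Such small r values cannot decide whether the replicate block pairs related libraries. The fit for *Hmgcs1* in descending fibroblasts gave -1.06 (adjusted p = 0.135) with the block. Levels near the floor of 3 counts limit what depth can show.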

Other observations

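Genes of cholesterol efflux and sterol sensing by LXR, the nuclear receptor for oxysterols, also differed. With TGFβ in ascending fibroblasts 6 of the 10 listed genes fell and 1 rose, beside 27.6% and 28.2% of all genes tested, and in descending fibroblasts 2 of the 9 tested fell with control replicate 3, beside 4.48% of all genes, and 7 fell and 2 rose without it, beside 26.3% and 26.6%. *Abca1*, the transporter that loads cholesterol onto apolipoproteins, fell by 1.41 (SE 0.06, adjusted p = 9.83e-12) in ascending and by 1.51 (0.12, 0.002) in descending fibroblasts (1.48 without control replicate 3), from 57.1, 65.7 and 57.2 to 23.7, 22.6 and 22.0 CPM and from 114.2, 116.0 and 120.3 to 38.1, 42.5 and 43.1 CPM. It was lower in ascending fibroblasts in control, at -0.96 (0.12, 0.0159) with that library and -0.93 without it, and with TGFβ, at -0.86 (0.07, 1.64e-11). *Apoe* fell by 1.53 (0.33, 0.000798) in ascending fibroblasts and by 0.76 (0.08, 2.2e-09) without ascending control replicate 2, the library with more macrophage markers. *Ch25h* and *Cyp7b1*, which make and clear oxysterols, fell by 1.19 (0.18, 3.22e-05) and 1.05 (0.32, 0.0107) in ascending fibroblasts. *Cyp7b1* fell by 1.66 (0.35, 0.0444) in descending fibroblasts and by 1.52 (0.27, 1.78e-05) without control replicate 3, and *Cyp27a1*, another oxysterol-forming enzyme, was higher in ascending fibroblasts with TGFβ, at 0.68 (0.18, 0.00296), and in control at 1.24 (0.21, 0.000383) without descending control replicate 3 and 1.18 (0.28, 0.117) with it. *Cyp7b1* was lower in ascending control, at -1.17 (0.26, 0.00357) without that library and -1.32 (0.37, 0.185) with it. Without control replicate 3, *Abcg1*, another efflux transporter, rose in descending fibroblasts by 1.83 (0.63, 0.0155), on 5 and 3 counts in control against 10, 17 and 8 with TGFβ, near the floor of 3 counts. *Mylip*, an LXR target that encodes a ubiquitin ligase, was lower in ascending control at -1.05 (0.20, 0.00118) in that fit and had -0.80 (0.459) with all libraries.

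Of the 10 fatty acid genes, 6 fell and 2 rose in ascending fibroblasts, beside 27.6% and 28.2% of all genes. *Acss2*, which makes acetyl-CoA from acetate, fell by 1.71 (0.16, 1.24e-07) in ascending and 1.19 (0.23, 0.0328) in descending fibroblasts (1.37 without control replicate 3), and *Fads2*, a fatty acid desaturase, by 1.20 (0.04, 6.52e-13) and 1.82 (0.37, 0.0393), or by 1.28 (0.06, 2.59e-17) in descending fibroblasts without control replicate 3. *Fasn*, fatty acid synthase, rose by 0.25 (0.03, 1.18e-05) in ascending fibroblasts and had -0.01 (0.887) in descending fibroblasts without control replicate 3 and 0.26 (0.643) with it. The stearoyl-CoA desaturases *Scd1* and *Scd2* were lower in ascending fibroblasts, in control at -1.66 (0.16, 0.00881) and -0.72 (0.12, 0.0473), or -1.51 and -0.81 without descending control replicate 3, and with TGFβ at -1.76 (0.09, 1.82e-15) and -0.85 (0.04, 3.51e-17). The adipocyte markers were also lower in ascending fibroblasts, with sums of 0.912 to 6.04 CPM against 26.9 to 34.7 CPM in control and 0.0473 to 0.679 CPM against 11.3 to 20.5 CPM with TGFβ, and their part in the differences of the fatty acid genes was not tested. *Elovl6*, a fatty acid elongase, was lower in ascending control at -0.70 (0.11, 0.0401), or -0.70 without descending control replicate 3, with an interaction of 0.56 (0.10, 0.000307) without that library and 0.55 (0.13, 0.104) with it. *Acss2* was lower in ascending TGFβ at -1.49 (0.17, 1.69e-08), and in ascending control at -1.15 (0.10, 1.15e-06) without descending control replicate 3 and -0.97 (0.23, 0.115) with it.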
